A study of Homo sapiens with 12 samples.

Results

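The genes described here are those of the eukaryotic translation initiation factors and of their closest regulators, taken as every protein-coding gene on chromosomes 1 to 22 and X whose symbol is EIF, a digit and further letters or digits. The rule found 55 genes among 19974 protein-coding genes, and the other 19919 served as the background. It uses no measured value. The symbols cover more than initiation: EIF4A3 is a helicase of the exon junction complex, EIF5A acts in elongation, EIF6 keeps ribosomal subunits apart, and the EIF2AK genes encode kinases.

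Peaks came from chromatin immunoprecipitation and sequencing in wild-type HEK293T cells, a human embryonic kidney line carrying the SV40 large T antigen. Antibodies were directed against INTS13, INTS11, HDGF, ZEB1 and ZNF609, with 2 libraries per protein and 1 deposited peak list per library, and the 2 libraries of input chromatin were not analysed here. INTS13 and INTS11 are subunits of Integrator, which cleaves nascent RNA of RNA polymerase II. HDGF is a chromatin-bound growth factor with a PWWP domain, ZEB1 a zinc finger repressor and ZNF609 a zinc finger protein. The lists held between 26409 and 416964 peaks. The cell line could not be checked against marker genes, since peak lists hold no RNA levels, and for the same reason genes silent in these cells were not set apart from transcribed ones.

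Initiation begins when eIF2, a carrier of the initiator tRNA that works only when bound to GTP, joins the small ribosomal subunit together with eIF1, eIF1A, eIF3 and eIF5. The cap-binding complex of eIF4E, eIF4G and eIF4A brings the mRNA, the loaded subunit scans to a start codon, and eIF5B helps the large subunit to join. Cells limit the process by kinases that phosphorylate eIF2, which blocks its exchange factor eIF2B, and by proteins that bind eIF4E. Several of these genes begin their transcripts with a run of pyrimidines, the mark of mRNAs whose translation follows TOR signalling.

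The upstream DNA of 5 members is shown. The starts of EIF3I, EIF4E1B and EIF3K carried 3 or more proteins, the most among the members, and EIF3D and EIF1 are 2 examples, chosen after their values were seen, of the starts that carried INTS13 and HDGF. Each run is the 250 bases before the transcription start, from RefSeq on GRCh38.p14, 5′ to 3′ on the strand of the gene, and capitals mark matches to the short motifs named further down. The windows are chr1:32222157-32222406 on the plus strand for EIF3I, chr5:176630425-176630674 on the plus strand for EIF4E1B, chr19:38618938-38619187 on the plus strand for EIF3K, chr22:36529167-36529416 on the minus strand for EIF3D and chr17:41688635-41688884 on the plus strand for EIF1.
EIF3I: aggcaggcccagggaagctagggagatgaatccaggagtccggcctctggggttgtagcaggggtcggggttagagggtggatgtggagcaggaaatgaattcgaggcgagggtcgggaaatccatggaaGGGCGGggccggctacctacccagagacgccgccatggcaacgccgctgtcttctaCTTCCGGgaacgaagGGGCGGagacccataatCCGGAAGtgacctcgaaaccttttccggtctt
EIF4E1B: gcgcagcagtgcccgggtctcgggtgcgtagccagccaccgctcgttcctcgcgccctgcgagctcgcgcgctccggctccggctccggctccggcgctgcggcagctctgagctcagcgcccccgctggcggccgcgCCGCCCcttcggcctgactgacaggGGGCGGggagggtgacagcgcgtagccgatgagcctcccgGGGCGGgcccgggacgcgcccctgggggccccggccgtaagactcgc
EIF3K: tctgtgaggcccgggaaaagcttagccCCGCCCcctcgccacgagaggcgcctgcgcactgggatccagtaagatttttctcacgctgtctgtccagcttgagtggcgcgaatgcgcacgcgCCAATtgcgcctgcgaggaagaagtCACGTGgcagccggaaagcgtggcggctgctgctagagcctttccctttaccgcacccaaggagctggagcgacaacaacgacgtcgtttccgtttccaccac
EIF3D: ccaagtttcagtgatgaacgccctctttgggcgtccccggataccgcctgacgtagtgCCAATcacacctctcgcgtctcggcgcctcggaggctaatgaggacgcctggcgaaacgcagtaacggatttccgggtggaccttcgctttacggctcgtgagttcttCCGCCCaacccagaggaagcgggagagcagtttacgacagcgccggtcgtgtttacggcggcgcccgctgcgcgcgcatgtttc
EIF1: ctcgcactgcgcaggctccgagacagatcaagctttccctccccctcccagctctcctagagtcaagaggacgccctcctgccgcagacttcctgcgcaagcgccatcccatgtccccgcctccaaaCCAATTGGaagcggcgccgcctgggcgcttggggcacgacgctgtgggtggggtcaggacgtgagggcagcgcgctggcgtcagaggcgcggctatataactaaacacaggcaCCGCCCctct

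INTS13 lay at the ends of most EIF genes, HDGF and INTS11 at a minority, and ZEB1 and ZNF609 at a single gene each. A gene was counted where a peak of each of the 2 lists overlapped the window of 1 kb either side of the same gene end. INTS13 was at 42 of 55 EIF genes (76.4%), against 64.2% of other protein-coding genes. HDGF was at 19 (34.5%), against 24.1%, and INTS11 at 12 (21.8%), against 18.3%. ZEB1 was at EIF3I alone (1.82%), against 4.19% of other genes, and ZNF609 at EIF3L alone (1.82%), against 1.75%. The shares of INTS11, ZEB1 and ZNF609 were thus near the background or below it, and those of INTS13 and HDGF were 12.2 and 10.5 percentage points above it.

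Single lists gave the replicate spread. INTS13 list 1 was at 50 and list 2 at 42 EIF genes, a mean of 83.6% ± 10.3 (SD, n = 2 lists), against 73.8% ± 8.04 of other genes, whose lists gave 79.5% and 68.1%. HDGF list 1 was at 36 and list 2 at 26, a mean of 56.4% ± 12.9, against 36.5% ± 2.73 of other genes (38.4% and 34.5%). INTS11 list 1 was at 35 and list 2 at 15, a mean of 45.5% ± 25.7, against 36.1% ± 19.6 (50% and 22.2%). Since the 2 lists of a protein differ in length, the difference within a list is the closer comparison: it came to 11.4 and 8.24 points (INTS13), 27.0 and 12.7 points (HDGF) and 13.7 and 5.05 points (INTS11), always with the EIF genes higher. ZEB1 was at 10 and 5 EIF genes (18.2% and 9.09%, against 13.3% and 8.48% of other genes) and ZNF609 at 4 and 2 (7.27% and 3.64%, against 7.0% and 3.43%). No test was run on these differences, because each protein has only 2 lists and the genes are not replicates.

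**Figure D1:**
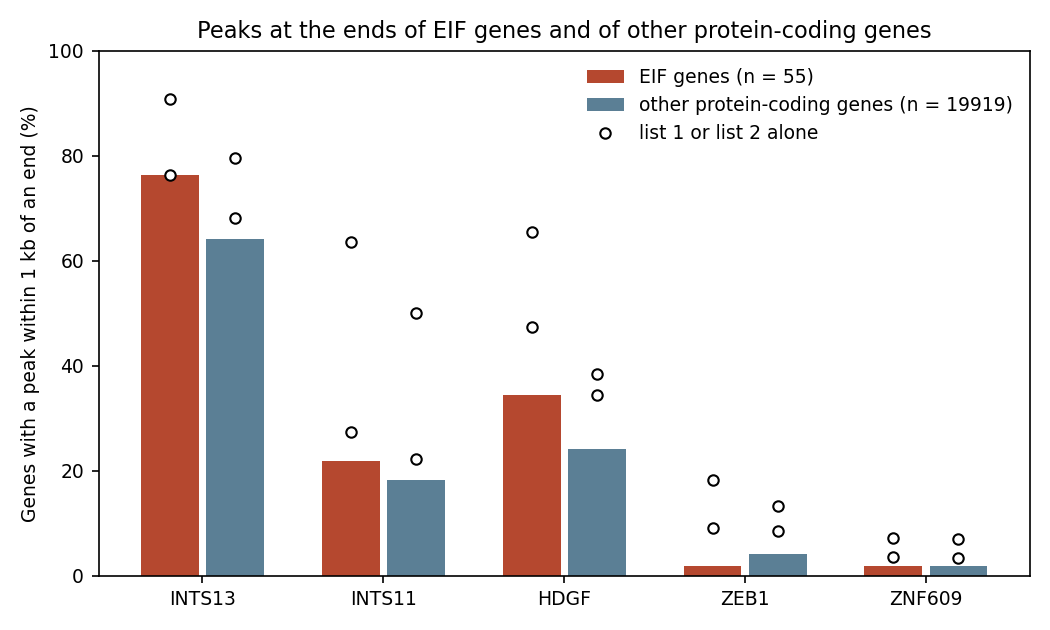
Share of genes with a peak within 1 kb of an end (percent, vertical axis) for the 5 proteins, EIF genes in red and other protein-coding genes in blue. Bars count genes with a peak of both lists at the same end, circles give each list alone; for HDGF the 2 circles of the EIF genes, 65.5% and 47.3%, both lie above those of the other genes, 38.4% and 34.5%.

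The sharpest difference between EIF genes and other genes was for HDGF inside the gene. A peak of each HDGF list lay between the ends of 44 of 55 EIF genes (80%), against 53.0% of other protein-coding genes, and each list alone touched 47 EIF genes (85.5%), against 61.4% and 57.4% of other genes. The median EIF gene held 2.44 and 1.68 HDGF peaks per 10 kb of its length in lists 1 and 2, against 0.488 and 0.262 for other genes, and 44 and 45 of the 55 lay above the median of the others. EIF genes were not longer, with a median length of 22741 bp, against 24193 bp. For INTS13 these shares lay closer: a peak of each list lay inside 46 EIF genes (83.6%), against 78.0% of other genes, with 2.51 and 2.25 peaks per 10 kb, against 2.55 and 2.03. INTS11 was inside 25 EIF genes (45.5%, against 40.3%), with 1.13 and 0 peaks per 10 kb, against 0.584 and 0. ZEB1 was inside 11 (20%, against 15.3%) and ZNF609 inside 6 (10.9%, against 9.39%). Interiors were counted after the gene ends had been seen, and a peak at an end counts inside as well where it reaches into the gene. More than 1 kb from either end the HDGF shares were 79.6% of EIF genes and 53.4% of other genes. For INTS13 they were 75.9% and 76.8%, so that EIF genes were no longer higher. Most of these HDGF peaks were weak: at a -log10 q of 5 or more, 5 EIF genes (9.09%) had a peak of each list inside, against 6.07% of other genes.

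The number of HDGF peaks inside the gene varied between members, and the genes named here are examples chosen after their values were seen. EIF1, which guards start codon choice and is only 3784 bp long, held 3 HDGF peaks in each list, or 7.93 per 10 kb, the most among the members in both. EIF3L held 22 and 21 HDGF peaks over 39989 bp, which ranked 2 and 6 among the members by peaks per 10 kb. EIF4G3, a scaffold of the cap complex and the longest member at 370606 bp, held 81 and 51. Per 10 kb this came to 2.19 and 1.38 in lists 1 and 2. These values lay below the medians of EIF genes, 2.44 and 1.68, and above those of other genes, 0.488 and 0.262. EIF3E, an eIF3 subunit on chromosome 8, had 9 and 8 HDGF peaks inside and none at an end. The 5 members with no HDGF peak inside in either list were EIF2S3B, EIF3C, EIF3CL, EIF3J and EIF5AL1. The share of other genes with none in either list was not counted.

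Outside the gene the HDGF excess was seen in 1 list only. Windows of the same size, centred 20 kb outside each end, held a peak of both HDGF lists for 9 EIF genes (16.4%), against 18.8% of other genes, beside 34.5% and 24.1% at the ends themselves. In the single lists the outside windows gave 45.5% and 25.5% of EIF genes, against 32.5% and 27.3% of other genes, so that EIF genes were above other genes in list 1 and below them in list 2. INTS13 kept most of its share outside, at 36 EIF genes (65.5%), against 53.7% of other genes, which is an excess of 11.7 points beside 12.2 at the ends. INTS11 gave 18.2% outside, against 14.4%. For INTS13 and INTS11 the windows outside EIF genes therefore stood above those outside other genes by about as much as the ends did.

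Starts and 3′ ends could be told apart for the 46 members with a RefSeq promoter entry, which gives the strand. INTS13 was at the start of 34 (73.9%), against 60% of 15767 other genes, and at the 3′ end of 19 (41.3%), against 42.7%. At starts each INTS13 list alone gave 91.3% and 73.9% of EIF genes, against 77.8% and 62.4%; at 3′ ends 54.3% and 45.7%, against 52.8% and 49.3%. HDGF was at the start of 10 EIF genes (21.7%, against 15.3%) and at the 3′ end of 11 (23.9%, against 17.2%). INTS11 was at 7 starts (15.2%, against 15.4%) and 7 3′ ends (15.2%, against 10.6%). INTS13 was thus above the background at EIF starts and not at their 3′ ends, and the difference between ends was not tested. For HDGF the lists ordered the ends in opposite ways: list 1 gave 43.5% at starts (against 26.2%) and 50% at 3′ ends (against 28.1%), and list 2 gave 34.8% at starts (against 24.5%) and 28.3% at 3′ ends (against 23.7%).

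**Figure D2:**
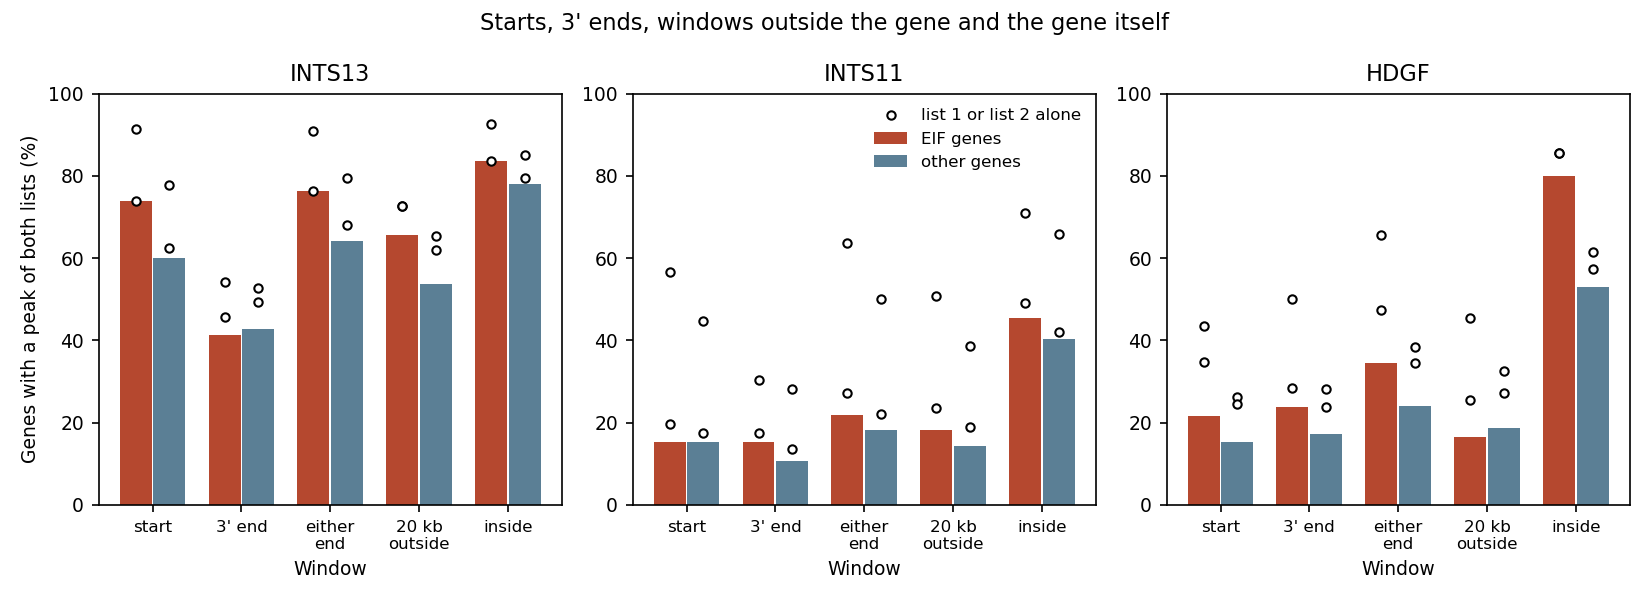
Share of genes with a peak of both lists (bars, percent) and of each list alone (circles) at starts, 3′ ends, either end, windows 20 kb outside the gene and inside the gene, with EIF genes in red and other protein-coding genes in blue, for INTS13, INTS11 and HDGF. The widest gap is that of HDGF inside the gene, 80% against 53.0%.

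In list 1 INTS13 summits sat closer to EIF starts than to other starts, and in list 2 the difference was smaller. Over the 34 starts with INTS13 in both lists, the strongest peak had its summit within 500 bp of the start at 27 in list 1 and 15 in list 2, beside 55.5% and 38.3% of 9466 other starts. The median distance, in either direction, was 201 and 560 bp, against 421 and 672.5 bp. HDGF summits lay mostly upstream: 3 of 10 in list 1 and 1 of 10 in list 2 were downstream of the start, beside 42.7% and 41.6% of other starts. By rank within a list, where 100 is the strongest peak and 0 the weakest, the best gene-end peak of EIF genes with INTS13 had a median percentile of 97.0 and 81.4, against 91.2 and 74.6 for other genes with INTS13. For HDGF the medians were 70.9 and 84.6, against 80.8 and 75.5, so that the 2 lists ordered EIF genes and other genes in opposite ways. For INTS11 they were 91.4 and 61.9, against 86.7 and 61.9.

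By role, the counts below stand beside shares of 64.2% for INTS13, 24.1% for HDGF and 18.3% for INTS11 over other protein-coding genes, and the groups are too small for the differences to be tested. Among the 14 genes of eIF3, a factor of many subunits that joins the small ribosomal subunit, INTS13 was at 8, HDGF at 8, INTS11 at 5, and ZEB1 and ZNF609 at 1 each. HDGF was at EIF3A, EIF3B, EIF3D, EIF3G, EIF3I, EIF3K, EIF3L and EIF3M, and each HDGF list alone also gave 8. EIF3A, EIF3D, EIF3G, EIF3I and EIF3L touched crowded bins, with more than 2 times the peaks of the average bin. EIF3B, EIF3K and EIF3M did not. In crowded bins HDGF was at 57.5% of other genes, and outside them at 14%. EIF3M was the only member with HDGF in both lists and not INTS13, and its HDGF peaks were weak, at rank percentiles of 1.44 and 10.2. Among the 12 genes of the cap-binding and helicase group INTS13 was at 10, HDGF at 4 and INTS11 at 3. INTS13 was at all 4 genes that hold eIF4E in check or carry it, EIF4EBP1, EIF4EBP2, EIF4EBP3 and EIF4ENIF1, and HDGF at 3 of them.

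With both lists at the same gene end, INTS13 was at most genes of eIF2 and eIF2B, and HDGF at none of them. INTS13 was at 5 of 6 genes of the initiator tRNA group (EIF2S1, EIF2S2, EIF2S3, EIF2A and EIF2D, but not EIF2S3B), at 4 of 5 subunits of the exchange factor eIF2B and at 2 of 4 eIF2 kinases, EIF2AK1 and EIF2AK2. HDGF was at 0 genes of these 3 groups by that rule. Of their genes only EIF2D touched a crowded bin, and outside such bins HDGF was at 14% of other genes. Whether these groups differ from eIF3 beyond the crowding of their bins was not tested. HDGF list 1 alone gave 4, 1 and 3 genes, beside 38.4% of other genes, and list 2 alone 2, 1 and 0, beside 34.5%. EIF2S3 and EIF2B4 had HDGF in both lists at opposite ends. Inside the gene, all members of the 3 groups except EIF2S3B and EIF2B5 held a peak of each HDGF list. This was seen at 80% of all EIF genes and 53.0% of other genes. INTS11 was at EIF2D alone in both lists, and in list 1 at 5, 3 and 2 genes of the 3 groups, beside 50% of other genes. INTS13 was at all 5 genes grouped as the EIF1 family and EIF5, which were EIF1, EIF1B, EIF1AX, EIF1AD and EIF5, with HDGF at 2 and INTS11 at 2. In the group of EIF5A, EIF5A2, EIF5AL1, EIF5B and EIF6, INTS13 was at 4, HDGF at 2 and INTS11 at 0.

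The study asked whether INTS13 and its partner proteins lie at the same loci. By pattern, 20 members carried INTS13 alone, 10 INTS13 and HDGF, 4 INTS13 and INTS11, 6 these 3 proteins, 1 these 3 with ZEB1, 1 these 3 with ZNF609, 1 HDGF alone and 12 none in both lists. The 10 with INTS13 and HDGF were EIF1AX, EIF3A, EIF3B, EIF4A1, EIF4EBP1, EIF4EBP2, EIF4G3, EIF4H, EIF5A and EIF6. The 4 with INTS13 and INTS11 were EIF1B, EIF2D, EIF4A3 and EIF4E3. Those with INTS13 alone were EIF1AD, EIF2A, EIF2AK1, EIF2AK2, EIF2B1, EIF2B2, EIF2B3, EIF2B4, EIF2S1, EIF2S2, EIF2S3, EIF3H, EIF4B, EIF4E2, EIF4EBP3, EIF4G1, EIF4G2, EIF5, EIF5A2 and EIF5B, and those with none were EIF2AK3, EIF2AK4, EIF2B5, EIF2S3B, EIF3C, EIF3CL, EIF3E, EIF3F, EIF3J, EIF4A2, EIF4E and EIF5AL1 (21.8%, against 34.7% of other genes). INTS13 and INTS11 were thus together at 21.8% of EIF genes, against 18.1% of other genes, and INTS13 and HDGF at 32.7%, against 23.1%. All 12 INTS11 genes also had INTS13, against 98.7% of the other genes with INTS11, and so had 18 of the 19 HDGF genes (94.7%), against 96.0% of the other genes with HDGF. That overlap was therefore at the background. HDGF without INTS13 was seen at 1.82% of EIF genes, against 0.964% of others. At least 1 protein was at 78.2% of EIF genes, against 65.3%, 2 or more at 40%, against 30.2%, and 3 or more at 14.5%, against 12.0%.

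**Figure D3:**
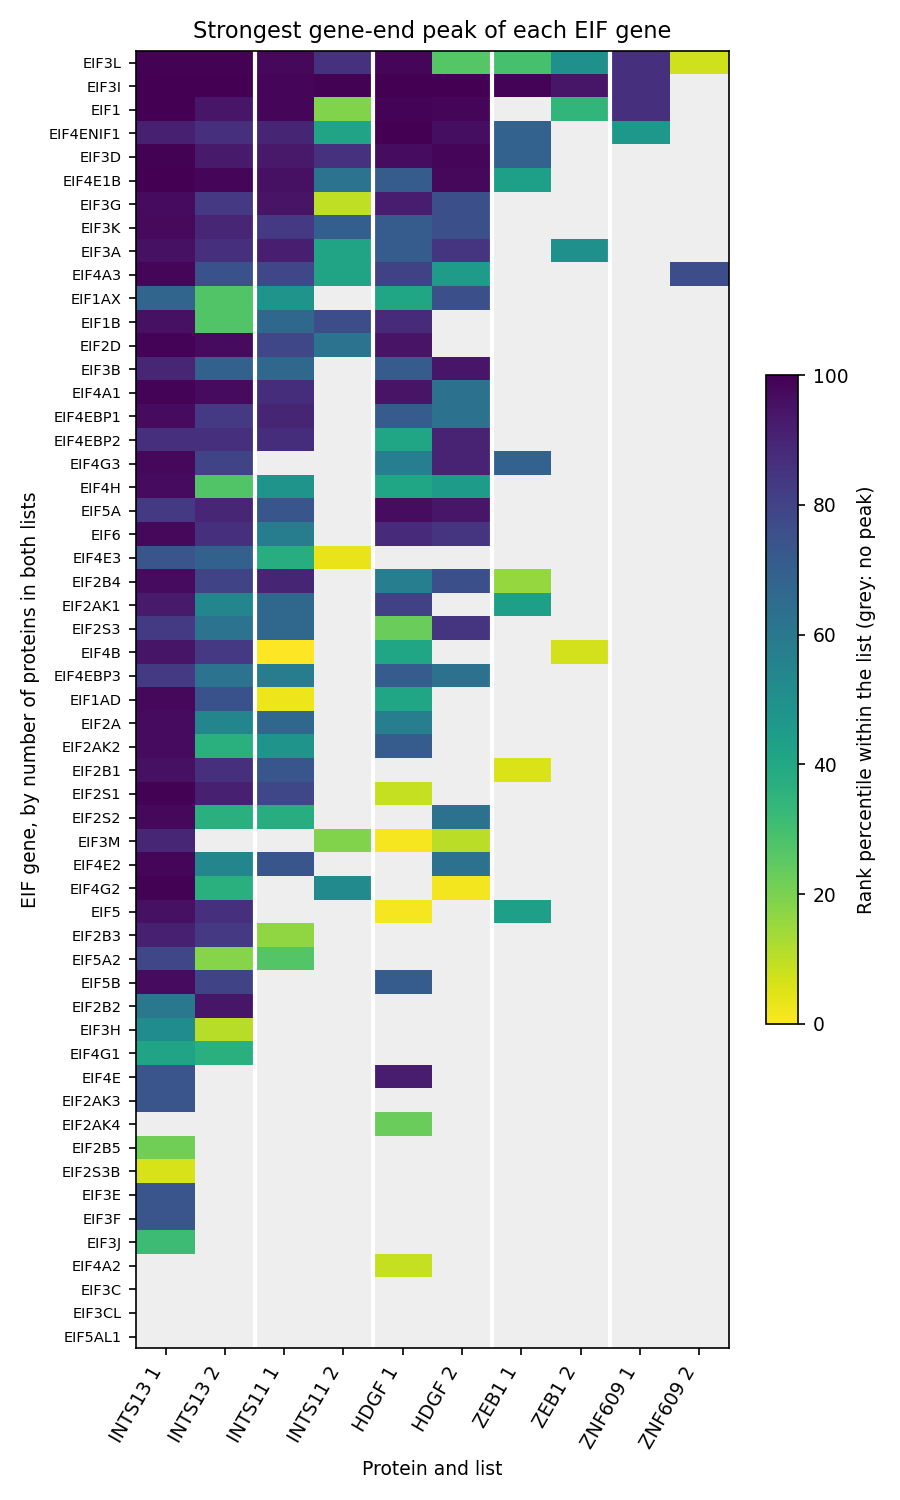
Strongest gene-end peak of each of the 55 EIF genes (rows, most proteins at the top) in each of the 10 lists (columns), coloured by its rank percentile within that list, with grey for no peak. INTS13 fills most rows, INTS11 list 2 is sparser than list 1, and ZEB1 and ZNF609 are almost empty.

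EIF3I, an eIF3 subunit at chr1:32222407-32236170, carried the strongest set. It also touched the most crowded 1-Mb bin of any member, with 11.9 times the peaks of the average bin (median of the 10 lists). Its rank percentiles were 99.9 and 99.7 in the INTS13 lists, 98.5 and 99.2 in INTS11, 99.6 and 99.7 in HDGF, 98.9 and 93.9 in ZEB1, and 86.1 in ZNF609 list 1 with no peak in list 2. By the mean over the 2 lists it ranked highest among the members with INTS13, with INTS11 and with HDGF, though in HDGF list 1 EIF4ENIF1 was higher, at 99.8, and in INTS11 list 1 EIF1 had the same value. It was the only member with ZEB1 in both lists at the same end, which held at its start and also at its 3′ end (94.2 and 87.5). Each value here and below is the strongest peak at either end in that list, so a pair of values can come from different ends. The strongest peaks overlapping the start window had a fold enrichment, as given by the authors, of 5.32 and 6.04 in HDGF and 3.94 and 3.44 in ZEB1. The HDGF peak of list 1 was 6582 bp wide with its summit at -5809 bp, and that of list 2 had its summit at -978 bp. For INTS11 the summits lay at -6386 and -1069 bp from the start. INTS13 covered the whole neighbourhood: the INTS13 peaks over the start were 42543 and 82938 bp wide, with summits at -23083 and -22375 bp from it. The strongest ZEB1 peaks at the start were narrow, 485 and 1332 bp, with summits at -392 and 1395 bp. An end of TMEM234 lies 54 bp away, so peaks there cannot be assigned to one of the 2 genes. Of the upstream sequences above, that of EIF3I holds the ETS letters on both strands and neither form of the ZEB1 letters.

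EIF3L, EIF3D and EIF4ENIF1 all lie on chromosome 22. Their bins were crowded too, with 6.54, 4.56 and 6.53 times the peaks of the average bin. EIF3L, at chr22:37849419-37889407, had rank percentiles of 99.5 and 99.4 in INTS13, 97.7 and 85.8 in INTS11, 98.6 and 26.4 in HDGF, 29.2 and 49.7 in ZEB1 with no end shared by the lists, and 86.1 and 7.41 in ZNF609. It was the only member with a peak in all 10 lists, but its ZNF609 peak was near the bottom of list 2. EIF3D, which binds the cap of certain mRNAs, at chr22:36510855-36529166, had 99.5 and 92.8 in INTS13, 93.3 and 85.8 in INTS11, 96.7 and 98.5 in HDGF, and 68.4 in ZEB1 list 1 only. EIF4ENIF1, the carrier of eIF4E into the nucleus, at chr22:31436963-31493568, had 91.2 and 86.5 in INTS13, 89.5 and 41.6 in INTS11, 99.8 and 96.4 in HDGF, and 68.4 and 46.8 in list 1 of ZEB1 and of ZNF609.

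The other members with 3 proteins lay on chromosomes 5, 17 and 19. Their bins held 4.69 (EIF4E1B), 2.34 (EIF3G), 1.95 (EIF1) and 1.58 (EIF3K) times the peaks of the average bin. EIF1, at chr17:41688885-41692668, had rank percentiles of 99.7 and 94.1 in INTS13, 98.5 and 19.0 in INTS11, 99.1 and 98.5 in HDGF, 34.0 in ZEB1 list 2 only and 86.1 in ZNF609 list 1 only. Its strongest HDGF peaks sat near the 3′ end, with summits at -706 and -833 bp from it, inside the gene. EIF4E1B, a germline relative of EIF4E, had 99.6 and 98.8 in INTS13, 95.7 and 61.9 in INTS11, 70.9 and 97.7 in HDGF and 43.6 in ZEB1 list 1; SNCB and TSPAN17 have ends 141 and 840 bp from its own. The HDGF and INTS13 peaks at both genes were thus high in both lists apart from HDGF list 1 at EIF4E1B, and the INTS11 peaks ranked higher in list 1 than in list 2. EIF3G, an RNA-binding subunit of eIF3 at chr19:10115014-10119899, had 97.0 and 83.4 in INTS13, 94.6 and 9.53 in INTS11, and 92.1 and 75.5 in HDGF. EIF3K, a small subunit at the edge of eIF3, at chr19:38619188-38636954, had 97.6 and 89.1 in INTS13, 83.2 and 70.0 in INTS11, and 70.9 and 75.5 in HDGF. At the EIF3K start the HDGF summits lay at -631 and -521 bp, with rank percentiles of 22.99 and 75.5, and the INTS13 summits at -116 and 1788 bp.

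**Figure D4:**
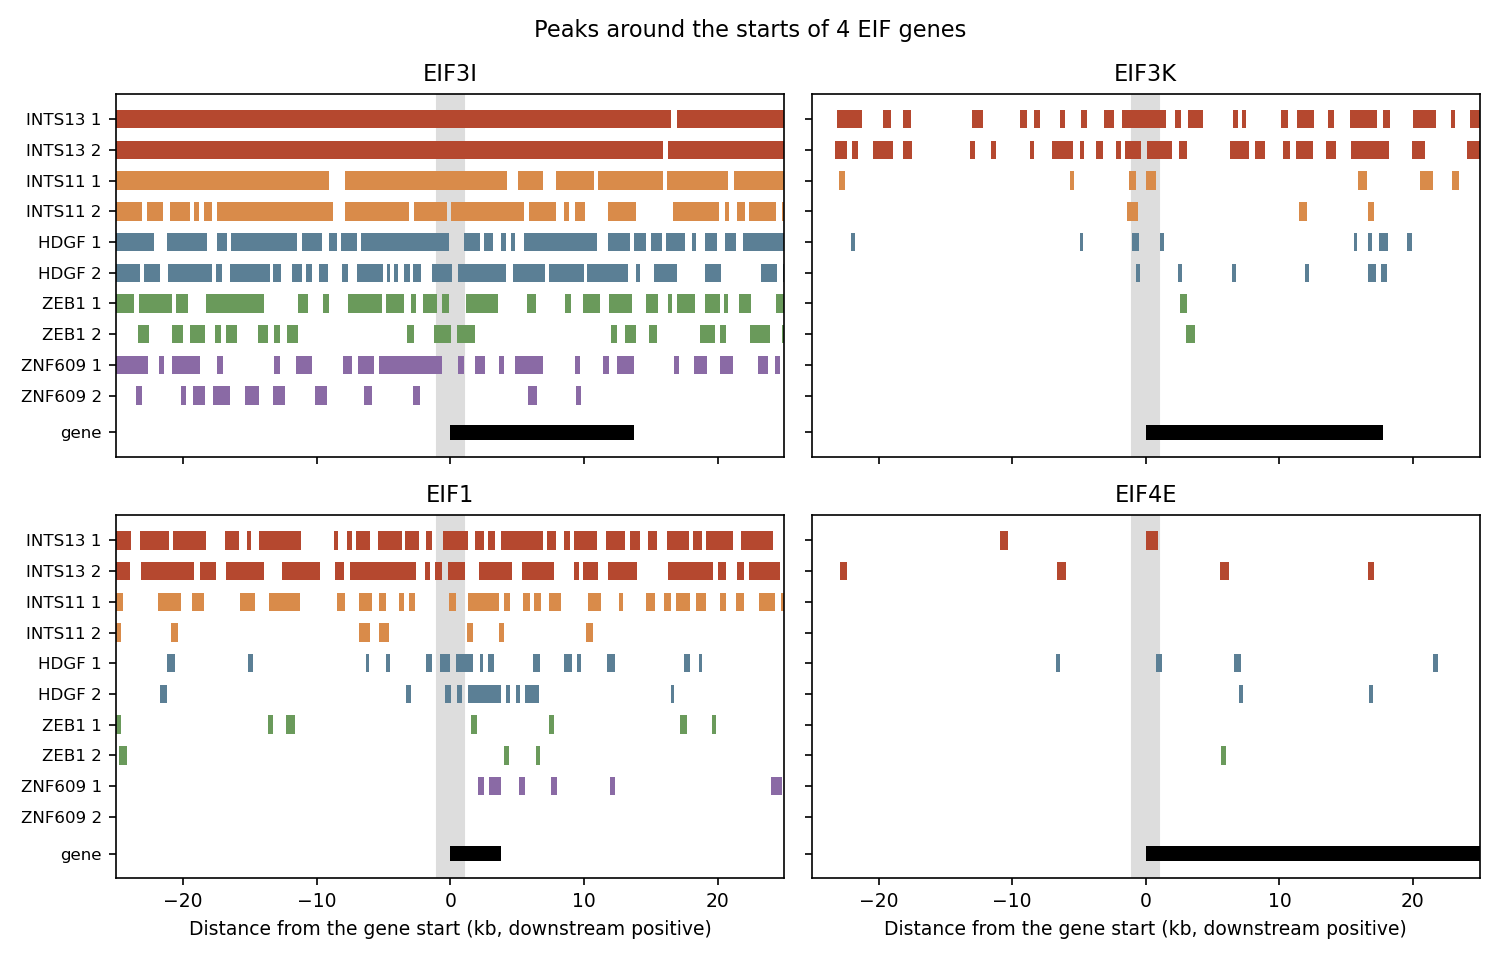
Peaks of the 10 lists around the starts of EIF3I, EIF3K, EIF1 and EIF4E, as distance from the start (kb, downstream positive), with the window of 1 kb either side in grey and the gene in black. EIF3I is covered almost end to end by INTS13, while EIF3K has separate short peaks and EIF4E few.

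At a -log10 q of 5 or more in both lists, HDGF remained at 4 EIF genes, EIF1, EIF3D, EIF3I and EIF4ENIF1 (7.27%, against 2.32% of other genes). INTS13 remained at 9, among them EIF2S1, which encodes the phosphorylated subunit of eIF2, and EIF4A1, the main helicase of the cap complex (16.4%, against 16.9%). INTS11 remained at EIF3I alone (1.82%, against 2.39%). Among the 10000 strongest peaks of each list HDGF was at EIF1, EIF3D, EIF3I, EIF4ENIF1 and EIF5A. At its outermost ends EIF5A had HDGF at the 3′ end and not at the start, with rank percentiles of 96.7 and 94.1 and summits at -19 and -66 bp from that end; GPS2 has an end 198 bp from it. A second RefSeq start of EIF5A, 1374 bp inside the gene, had HDGF and INTS13 in both lists.

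Core genes of initiation were among those with few peaks at their ends. EIF4E, which binds the cap, had an INTS13 peak in list 1 (rank percentile 73.5) and an HDGF peak in list 1 (92.1) and no gene-end peak in the other 8 lists. Inside the gene it held 5 and 4 HDGF peaks and 1 and 4 INTS13 peaks in lists 1 and 2. EIF4G1, the main scaffold of the cap complex, had INTS13 at 41.6 and 36.3 and no other protein at its ends. EIF2AK3 and EIF2AK4, kinases that answer to stress in the endoplasmic reticulum and to lack of amino acids, had 1 list each with a peak at an end. Inside, EIF2AK3 held 3 and 1 HDGF peaks in lists 1 and 2, and EIF2AK4 held 2 and 3. No list had a peak at the ends of EIF3C, EIF3CL or EIF5AL1 (5.45% of members, against 17.3% of other genes). EIF3C and EIF3CL are near-identical copies, and EIF5AL1 is a copy of EIF5A. How such copies were treated in mapping is not given in the sources used here, and its part in these absences was not tested. EIF2S3B, a copy of EIF2S3, had INTS13 in list 1 only.

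The number of proteins at an EIF gene went with the crowding of peaks around it. The 1-Mb bins touched by a gene were scored by their number of peaks over that of the average bin, as the median of the 10 lists. Members with no protein in both lists had a median score of 0.103 (range 0 to 1.10), those with 1 protein 0.834, those with 2 1.63 and those with 3 or more 4.63 (1.58 to 11.9). Other genes had medians of 0.104, 0.828, 1.73 and 3.68, close to the members at each step. The score is made from the same peaks and is not independent of the count. Bins scoring above 2 touched 14 EIF genes (25.5%), against 23.1% of other genes. In them INTS13 was at all 14, against 94.9% of other genes, INTS11 at 9 (64.3%), against 57.1%, HDGF at 9 (64.3%), against 57.5%, and ZEB1 and ZNF609 at 1 each (7.14%), against 17.3% and 7.45%.

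Outside those crowded bins INTS13 was at 28 of 41 EIF genes (68.3%), against 55.0% of other genes, HDGF at 10 (24.4%), against 14%, INTS11 at 3 (7.32%), against 6.68%, and ZEB1 and ZNF609 at 0, against 0.261% and 0.0457%. HDGF lay inside 30 of the 41 (73.2%), against 44.9%, with medians of 1.45 and 0.817 peaks per 10 kb, against 0.149 and 0. The HDGF differences were thus of similar size with and without the crowded bins. Another protein-coding gene had an end within 1 kb of an end of 24 EIF genes (43.6%), against 28.5% of other genes; among the 31 EIF genes without such a neighbour HDGF was at 10 (32.3%), against 18.8%, and INTS13 at 21 (67.7%), against 59.6%.

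**Figure D5:**
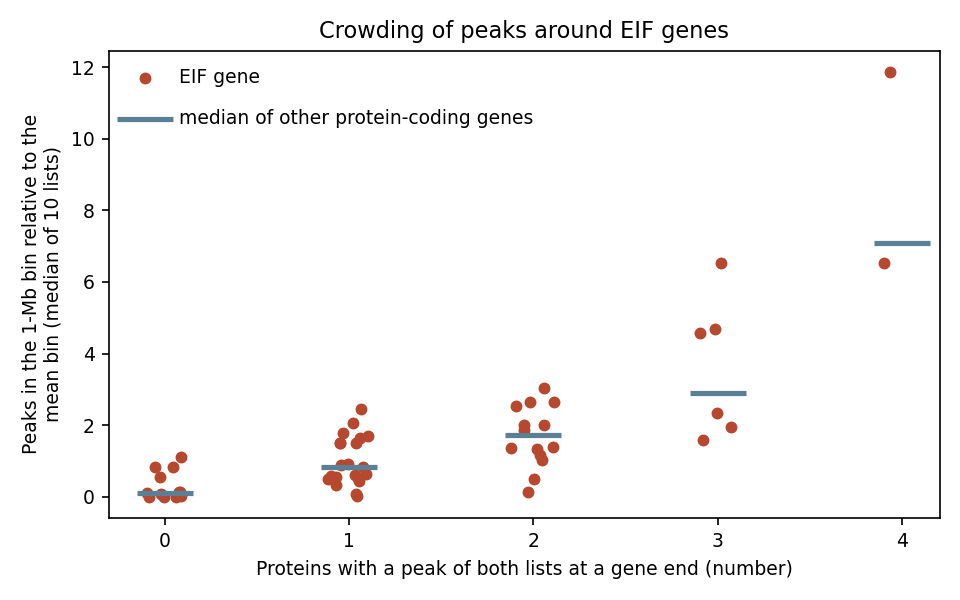
Peaks in the 1-Mb bins touched by each EIF gene, relative to the mean bin and as the median of the 10 lists (vertical axis), by the number of proteins with a peak of both lists at a gene end; blue lines give the median of other protein-coding genes. EIF genes with no protein lie between 0 and 1.10 and those with 3 or more between 1.58 and 11.9.

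Several sequence features that the symbols do not fix were more frequent in EIF promoters than in other promoters. Over the 300 bases from 250 before to 50 after the start, the 46 EIF promoters had a median GC content of 64.7%, against 62.7% for 15766 other promoters, and a CpG ratio, observed over that given by the base content, of 0.905, against 0.761. A transcript start of C followed by 4 bases that are each C or T, as in mRNAs under TOR control, was found in 10 (21.7%), against 4.54%: EIF2A, EIF2D, EIF2S3, EIF2S3B, EIF3D, EIF3F, EIF3K, EIF3M, EIF4A2 and EIF4B. INTS13 was at the start of 6 of these 10 and HDGF of 3, beside 475 and 136 of the 716 other promoters with such a transcript start. Motif letters were searched on both strands. CACGTG, the E-box of MYC and MAX, stood in 12 EIF promoters (26.1%, against 8.77%), among them EIF4E, EIF4A3, EIF4G1 and EIF3K. CCGGAAG, the core of ETS sites, stood in 12 (26.1%, against 14.1%), and GGGCGG, the GC box, in 34 (73.9%, against 58.3%).

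For the remaining letters the EIF share was close to the background or below it. CCAAT stood in 19 EIF promoters (41.3%, against 36.3%), AAGATGG, the core of YY1 sites, in 4 (8.70%, against 6.36%), TATAAA in 2 (4.35%, against 9.77%) and the core of NRF1 sites in 0 (against 1.78%). The ZEB1 letters CAGGTG stood in 6 (13.0%, against 19.9%) and CAGGTA in 3 (6.52%, against 8.40%). Among the 10 EIF promoters with HDGF at the start, all 10 held GGGCGG, 3 held CCGGAAG and 2 held CACGTG, beside 69.8%, 15.8% and 11.5% of the 2441 other promoters with HDGF. Among the 33 with INTS13, 28, 9 and 9 did, beside 66.0%, 16.1% and 9.75% of 9524 other promoters with INTS13. These are counts of letters and not of bound sites.

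Neighbouring steps of translation are given for comparison, over lists chosen with earlier results of these data known. The shares over all other protein-coding genes were 64.2% for INTS13, 24.1% for HDGF, 18.3% for INTS11, 4.19% for ZEB1 and 1.75% for ZNF609. Of 21 initiation and cap factors with other symbols, INTS13 was at 14 (66.7%), HDGF at 6 (28.6%) and INTS11 at 3 (14.3%), near those shares, and ZNF609 was at MCTS1, which helps to recycle ribosomes. Of 9 elongation factor genes INTS13 was at 7 (77.8%), HDGF at 5 (55.6%) and INTS11 at 0, and of 6 release and recycling genes at 4 (66.7%), 4 (66.7%) and 1 (16.7%). Of 20 cytosolic aminoacyl-tRNA synthetase genes INTS13 was at 14 (70%), HDGF at 8 (40%) and INTS11 at 4 (20%), with ZEB1 at YARS1 and SARS1. Of 17 genes of the integrated stress response and TOR signalling INTS13 was at 16 (94.1%), HDGF at 13 (76.5%) and INTS11 at 11 (64.7%), with ZEB1 at ATF4, PPP1R15A, TSC2 and RHEB, and ZNF609 at RHEB. The share with HDGF was 34.5% for EIF genes, beside 65.4% for 81 cytosolic ribosomal protein genes and 33.3% for 39 proteasome subunit genes; inside the gene the medians per 10 kb were 2.44 and 1.68, beside 4.21 and 4.22 for ribosomal protein genes and 2.03 and 1.89 for proteasome genes. These differences were not tested.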

How the data were processed

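Chromatin immunoprecipitation libraries of 5 proteins in HEK293T cells were analysed as peak lists, grouped by the sample titles. The submitters' processing notes name MACS2 and, with no role given, FastQC, Trimmomatic, Bowtie and Picard. Versions, thresholds, the control used and the build are not given in these sources. Each library has a peak list of its own. In the deposited lists the fold of a peak is the authors' ratio (fold enrichment), the p-value and q-value are on a deposited -log10 scale, and the deposited score is the -log10 q times 10, cut to a whole number. They served only to rank or filter peaks within a list. Read depth is unknown, so no counting interval is given. GRCh38 was inferred from the names of alternate contigs, and 321 peaks off chromosomes 1 to 22 and X were left out.

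Genes, strands and promoters came from NCBI RefSeq for GRCh38.p14; 46 of 55 members had a promoter entry. The entries for EIF2AK1, EIF2S2, EIF3A, EIF3CL, EIF3E, EIF3G, EIF3H, EIF3L and EIF4EBP1 were missing. A peak counted at a gene end with 1 bp or more inside 1 kb either side. Overlap code was tested on simulated data. The members and lists were chosen with earlier results of these data known; interiors, outside windows and the setting without neighbouring genes were added after seeing the data. Values are given in every list for members with 3 or more proteins, for the top ranked member of each protein and for members with no peak; other members named were chosen after their values were seen. Nothing in the labels says that replicates came from separate cultures, so their spread may be technical. Computation used Python 3.11.15, pandas 2.3.3 and numpy 2.4.6.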

Additional observations from a re-analysis of the deposited data

How the results depend on the processing

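Over 12 alternatives EIF genes had the higher share of HDGF at their ends in 12, of INTS13 in 11, of INTS11 in 10, of ZNF609 in 6 and of ZEB1 in 4. The alternatives reuse the same lists and genes, so they are not independent of each other. Leaving out genes with a near-identical copy removed EIF genes only and left the background unchanged. It gave 40 of 49 for INTS13 (81.6%, against 64.2%) and 18 for HDGF (36.7%, against 24.1%). The counts themselves moved with the peaks and windows admitted, for EIF genes and other genes alike. Peaks with a -log10 q of at least 5 gave 9 for INTS13 (16.4%, against 16.9% of other genes), 1 for INTS11 (1.82%, against 2.39%), 4 for HDGF (7.27%, against 2.32%) and 0 for ZEB1 and ZNF609 (against 0.156% and 0.0552%). With the 10000 strongest peaks they were 4 for INTS13 (7.27%, against 4.15%), 1 for INTS11 (1.82%, against 2.10%), 5 for HDGF (9.09%, against 3.23%) and 0 for ZNF609 (against 0.462%). A window of 2000 bp gave 31 for HDGF (56.4%, against 36.2%), 4 for ZEB1 (7.27%, against 6.4%) and 3 for ZNF609 (5.45%, against 3.08%), and one of 500 bp gave 0 for ZNF609 (against 1.01%). Requiring the summit in the window gave 0 for ZEB1 and ZNF609 (against 3.04% and 1.17%), and merged regions 2 for each (3.64%, against 3.79% and 1.56%). Outside crowded bins, with 41 members, the counts were 3 for INTS11 (7.32%, against 6.68%), 10 for HDGF (24.4%, against 14%) and 0 for ZEB1 and ZNF609 (against 0.261% and 0.0457%). Without members that have an end of another gene within 1 kb, a setting added after seeing the data, the 31 left gave 21 for INTS13 (67.7%, against 59.6%), 7 for INTS11 (22.6%, against 16.1%), 10 for HDGF (32.3%, against 18.8%) and 0 for ZEB1 and ZNF609 (against 3.77% and 1.71%). Single lists, without replicate 1 or without replicate 2, gave 42 to 50 for INTS13, 15 to 35 for INTS11, 26 to 36 for HDGF, 5 to 10 for ZEB1 and 2 to 4 for ZNF609. Inside genes, HDGF was at 43 of 54 members more than 1 kb from either end (79.6%, against 53.4%), and at 47 in either list alone; a -log10 q of 5 or more left 5 (9.09%, against 6.07%) and the strongest peaks 10 (18.2%, against 8.81%). INTS13 inside genes was at 16 (29.1%, against 29.2%) and 5 (9.09%, against 6.39%) under the same settings, and at 46 to 51 in single lists. More than 1 kb from either end INTS13 was at 41 of 54 (75.9%, against 76.8%). The stricter settings admit fewer peaks by construction; beyond that the cause was not tested. No paired analysis was possible because the counts come from no test, and replicate numbers are not said to mark a shared culture or day.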
